A study of Mus musculus with 228 samples.

Results

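Neurod6 mRNA split the CA1 pyramidal neurons that had received the Ascl4 virus into 2 classes. Of 45 such cells, 19 held Neurod6 at 10 CPM or more (its reads scaled to a total of 1000000 reads per cell) and are called Neurod6-kept, and 26 held less and are called Neurod6-lost. The members of each class were chosen by their measured Neurod6 value, so the names stand for that reading alone, and the Neurod6 level of a cell before the virus was not measured. The series has 4 groups of cells, and the 45 Ascl4 CA1 and 46 control CA1 cells of the quality-controlled count table are used here. The RNA of each cell was drawn through a patch pipette from an acute slice of the ventral hippocampus and sequenced singly (patch-RNAseq). The CA1 cells came from Nex-Cre mice, 3 to 4 months old, injected 1 month earlier. Control cells (EGFP CA1) received a Cre-dependent adeno-associated virus (AAV) for enhanced green fluorescent protein alone, in equal amount, and Ascl4 CA1 cells received that virus together with AAV-Ascl4. No group received a second virus that lacks Ascl4. The study text counts 58 sequenced and 51 accepted Ascl4 CA1 cells. The 2 count tables used here hold 58 and 45.

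The labels name no animal, so the cells of a group count as 1 sample. No test between the classes is given for this reason, and every ratio below is a description of these cells. Intervals are exact Clopper-Pearson 95% intervals and cover counting error only. They treat each cell as independent. Where a gene was picked for its difference between the classes, its intervals do not compare the classes.

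Neurod6 and Ascl4 are transcription factors of the basic helix-loop-helix (bHLH) kind, which bind as dimers to a short DNA motif, the E-box. Neurod6 belongs to the NeuroD family and is expressed in pyramidal neurons of the cortex and hippocampus from their early differentiation into adult life. Ascl4 belongs to the achaete-scute family, whose best known members act in neural progenitors. Nex is another name of Neurod6. In the widely used Nex-Cre line the recombinase sits at the Neurod6 locus, so a labelled cell is one in which that locus has been active at some time. Both virus groups share this line. What this insertion does to the level of Neurod6 mRNA was not measured here.

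The gene that defines the classes lies on chromosome 6 (GRCm38, 55677822 to 55681263, minus strand). Its promoter is shown because the split rests on this transcript and because bHLH factors bind E-boxes. The RefSeq window of 300 bases around the start site (GRCm38.p6, chr6:55681214-55681513, minus strand, 5′ to 3′) holds 2 E-boxes of the form CANNTG, in capitals.
Neurod6 promoter: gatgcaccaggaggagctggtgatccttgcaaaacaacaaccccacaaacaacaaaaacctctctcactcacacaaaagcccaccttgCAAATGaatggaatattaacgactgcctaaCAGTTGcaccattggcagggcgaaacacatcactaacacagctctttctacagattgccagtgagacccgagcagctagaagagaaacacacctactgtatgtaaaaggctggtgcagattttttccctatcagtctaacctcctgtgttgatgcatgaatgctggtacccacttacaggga
The motif reads as CANNTG on both strands. Among 27025 genes with a promoter in that table, 74.99% hold at least 1 such motif, so its presence does not set this promoter apart.

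Among the Neurod6-kept Ascl4 cells, Neurod6 ranged from 11.4 CPM through a median of 225 to 556 CPM. In the Neurod6-lost cells it ranged from 0 through a median of 0.451 to 7.42 CPM, and 6 of the 26 had no Neurod6 read. The classes cannot overlap because the threshold made them. The lost cells nearest the threshold held 3.22, 6.37 and 7.42 CPM, and the kept cells nearest it held 11.4, 12.2 and 16.8 CPM. The 7.42 CPM rested on 8 reads of 1077532, and the 6.37 CPM came from the deepest cell, which had 25442664 reads. When every cell was thinned to 1000000 reads, all 45 cells stayed in their class.

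The share of kept cells was 42.2% in Ascl4 CA1 cells (19 of 45, interval 27.7% to 57.8%). Under the same threshold it was 86.96% in EGFP CA1 cells (40 of 46, interval 73.7% to 95.1%). Low readings were thus also present without the Ascl4 virus, in 6 EGFP cells whose Neurod6 ran from 0 through a median of 0.939 to 3.69 CPM. Kept EGFP cells ranged from 10.03 through a median of 315 to 1348 CPM, and 13 of the 40 lay above the highest kept Ascl4 cell. Of the 13 Ascl4 CA1 cells that the authors' quality control left out, 2 were at or above the threshold (15.4%, interval 1.92% to 45.4%).

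**Figure D1:**
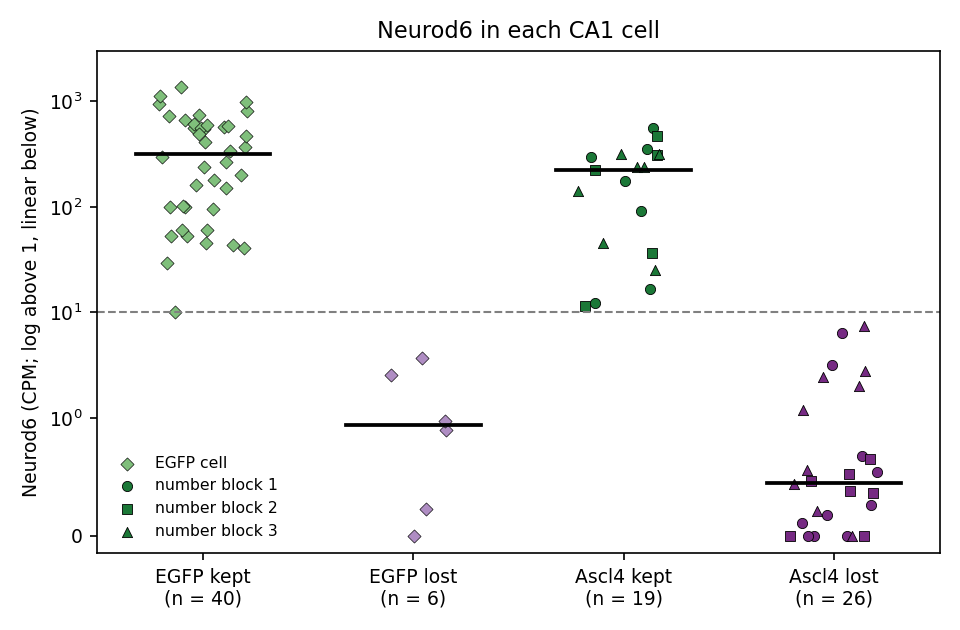
Neurod6 in every CA1 cell, in CPM on an axis that is logarithmic above 1 and linear below. Each point is 1 cell, black bars are class medians, the dashed line is the 10 CPM threshold that made the classes, and marker shapes of Ascl4 cells give the block of cell numbers. The Ascl4 cells held medians of 225 CPM (kept) and 0.451 CPM (lost), and all 3 blocks hold cells of both classes.

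Ascl4 itself did not separate the classes. It ranged from 1613 through a median of 6427 to 31943 CPM in kept cells and from 23.2 through a median of 6852 to 23759 CPM in lost cells. The lost cell at 23.2 CPM lay within the range of the kept EGFP cells (0.781 to 153.2 CPM) and goes against its label. The cell numbers in the titles fall into 3 separate blocks, here block 1, 2 and 3 in rising order, whose meaning the labels do not give. They hold 7, 5 and 7 kept and 10, 7 and 9 lost cells, so values within each block could be set beside the pooled ones.

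Other cell measures differed between the classes and are given here because they bear on every ratio. The median number of reads was 5303545 in kept and 3541403.5 in lost cells, and the median number of genes at 10 CPM or more was 3993 and 3348.5. The median share of mitochondrial reads was 0.510% in kept and 0.926% in lost cells. One lost cell stood apart with 17883 genes read and 37.7% mitochondrial reads. The summed microglia and macrophage markers exceeded 10000 CPM in 3 kept and 3 lost cells, reaching 84189 CPM in 1 kept cell. Over all genes tested, 70.2% were at 10 CPM or more in a larger share of kept than of lost cells, by a median of 6.48 percentage points. The part of these differences in the gene results was not tested, other than through the values given beside them.

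For each gene the mean CPM of kept cells was divided by that of lost cells, with 1 CPM added to both, and is given as a log2 ratio. A gene counts as tested when it was read in at least 25% of the 45 cells and averaged at least 10 CPM over them. It is called higher or lower when 3 measures (the mean, the mean without each class's highest cell, the summed reads) all differ by 2-fold or more in 1 direction and the share of cells at 10 CPM or more differs in that direction too. Of 8960 genes tested, 979 (10.9%) were called higher in kept cells and 758 (8.46%) lower, with Neurod6 left out. The median log2 ratio over all tested genes was 0.03. Only 568 of the 979 and 426 of the 758 had the same sign in all 3 blocks of cell numbers. The balance of calls moved with the scaling. Of all calls, 56.4% were higher in kept cells with CPM, 46.7% with edgeR TMM factors, 42.8% with the authors' normalized values and 32.1% with DESeq2 size factors. These 3 scalings moved the median of all tested genes to -0.18, -0.20 and -0.83. Without the lost cell of 17883 genes 985 genes were called higher and 761 lower, and without the lost cell low in Ascl4 988 and 819.

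CA1 pyramidal identity was read from 34 marker genes, 29 of them tested. None was called higher and 2 (6.90%, against 8.46% of all tested genes) were called lower in kept cells, among them Spink8, and the median log2 ratio was 0.03, as over all genes. The median of the same list within the 3 blocks was 0.04, -0.19 and 0.12. The summed list ranged from 2123 through a median of 6682 to 13758 CPM in kept cells and from 870 through a median of 7004 to 11202 CPM in lost cells, so the classes overlapped over most of the range. Of 7 defining CA1 markers, at least 3 were at 10 CPM or more in 14 of 19 kept, 18 of 26 lost and 33 of 40 kept EGFP cells. The list median went to -0.25 with TMM, -0.17 with the authors' values (-0.165) and -0.67 with DESeq2 size factors, beside the shifts of all genes given above.

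Single markers are given next. Cpne7, a calcium-dependent phospholipid-binding copine, had a median of 1216 CPM in both classes, and 18 of 19 kept and 25 of 26 lost cells were at 10 CPM or more. Crym, a thyroid-hormone-binding protein, was at 10 CPM or more in 18 of 19 and 22 of 26 cells, with medians of 643 and 468 CPM. Fibcd1, a chitin-binding receptor used as a CA1 marker, was at 10 CPM or more in 8 of 19 kept and 8 of 26 lost cells. In kept EGFP cells Fibcd1 reached that level in 34 of 40. Sv2b, a synaptic vesicle glycoprotein, averaged 515 ± 526 CPM (SD over 19 cells) in kept and 250 ± 357 CPM (SD over 26 cells) in lost cells, a log2 ratio of 1.04 that the summed reads did not repeat (0.38).

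Spink8, a serine protease inhibitor abundant in CA1, was at 10 CPM or more in 3 of 19 kept and 8 of 26 lost cells (log2 ratio -1.82), and block 3 had the opposite sign (0.35). Slc17a7, the vesicular glutamate transporter of hippocampal excitatory neurons, was at 10 CPM or more in all 19 kept and in 20 of 26 lost cells (76.9%, interval 56.4% to 91.03%). Its mean was 266 ± 174.1 CPM (SD, 19 cells) in kept and 242 ± 297 CPM (SD, 26 cells) in lost cells.

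Other forebrain excitatory transcription factors did not follow Neurod6. Of 27 tested, none was called higher and 3 (11.1%, against 8.46% of all genes) were called lower in kept cells, among them Tcf3 and Rfx3, and the list median was -0.25. Neurod2, a close relative of Neurod6, was at 10 CPM or more in 9 of 19 kept and 15 of 26 lost cells and averaged 61.8 and 72.3 CPM. Neurod1, a further member of the family, was at that level in 6 of 19 and 7 of 26 cells, and Bhlhe22, a bHLH repressor, in 2 of 19 and 7 of 26. Rfx3, a winged-helix factor known for cilia genes, averaged 15.3 CPM in kept and 190.9 CPM in lost cells, where 1 cell held 2677 CPM. Tcf3 encodes the E protein E2A, a dimer partner of bHLH factors. It was at 10 CPM or more in 2 of 19 kept and 6 of 26 lost cells, and its log2 ratio of -1.49 turned to 0.61 when block 1 was left out.

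**Figure D2:**
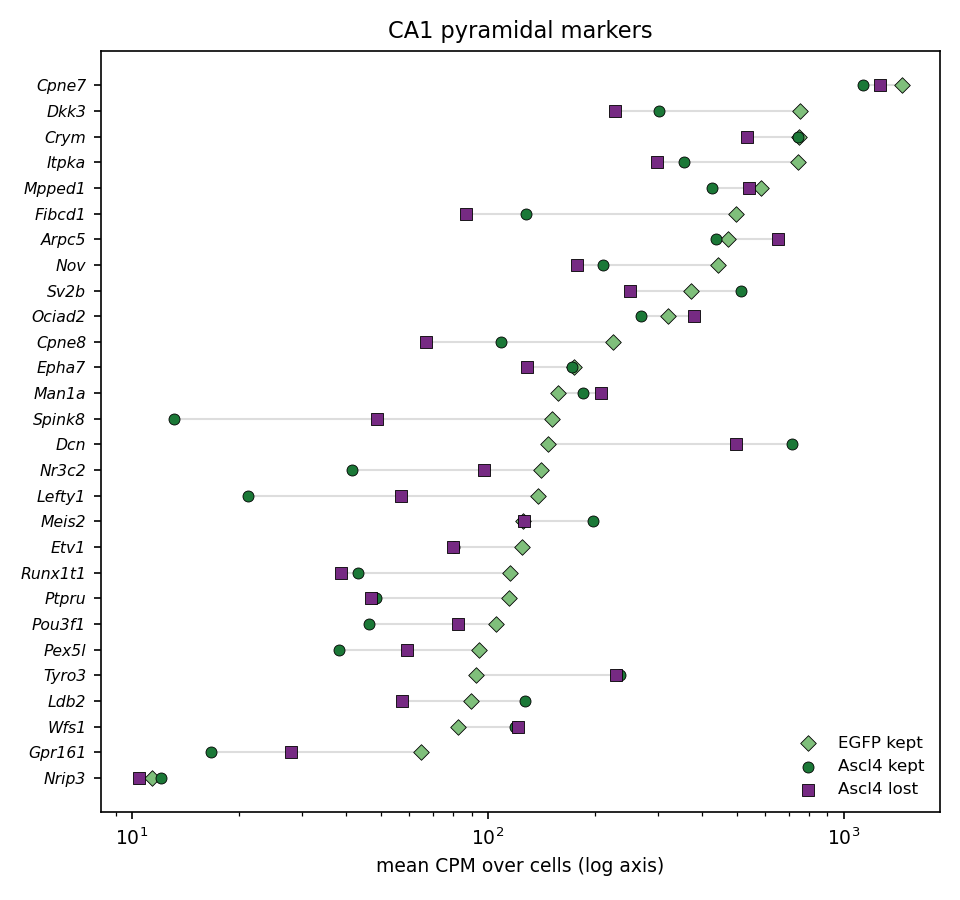
Mean CPM over cells, on a log axis, of 28 of the 29 tested CA1 pyramidal markers in kept EGFP, kept Ascl4 and lost Ascl4 cells. Each row is 1 marker. Over all 29, the median log2 ratio between the 2 Ascl4 classes was 0.03, while 11 of the 29 markers were called lower in kept Ascl4 than in kept EGFP cells and 1, Dcn, higher.

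Kept Ascl4 cells were also set beside kept EGFP cells, which holds the Neurod6 class the same in both viruses. In this comparison 9156 genes were tested, of which 732 (7.99%) were called higher and 1063 (11.6%) lower in Ascl4 cells, with a median log2 ratio of -0.08. Of the 29 tested CA1 markers 11 were called lower and 1 higher, with a list median of -1.04. Part of this list was named from earlier results of these data, so its direction is not independent evidence. The 17 members without those genes held 8 called lower and none higher, with a median of -1.07. Without the cells over 10000 CPM of microglial markers (3 of each group) 10 of 30 markers were called lower and 2 higher, with a list median of -0.68. Of all genes tested in that setting, 13.2% were called lower and 7.45% higher. Fibcd1 averaged 127.7 CPM in kept Ascl4 and 498 CPM in kept EGFP cells. Dcn, the proteoglycan decorin that marks ventral CA1, went the other way, with 714 CPM in kept Ascl4, 499 CPM in lost Ascl4 and 147.3 CPM in kept EGFP cells.

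The highest and lowest called genes of that comparison were mostly read in few cells. Besides Ascl4 itself (log2 ratio 8.04), the highest were Lgals3bp (7.33), Ccl5 (7.32), Pld4 (6.78), H2-K1 (6.74) and Ifi27l2a (6.73). Ccl5 is a chemokine that attracts leukocytes, H2-K1 a classical MHC class I heavy chain and Ifi27l2a an interferon-induced mitochondrial protein. Ifi27l2a was at 10 CPM or more in 10 of 19 kept Ascl4 cells, 9 of 26 lost Ascl4 cells and none of 40 kept EGFP cells (interval 0 to 8.81%). Lgals3bp and Pld4 were at that level in 3 of 19 kept Ascl4 cells each and Ccl5 in 5. Microglia and macrophage markers moved with these genes, with 12 of 25 called higher (48%, against 7.99%), none lower and a median of 1.46. Interferon-induced effectors had 7 of 13 called higher and 1 lower in the same comparison, and MHC class I and peptide loading genes 6 of 9 higher. Without the cells over 10000 CPM of microglial markers (3 kept Ascl4 and 3 kept EGFP) these counts became 1 of 24 microglial markers higher and 2 lower, 2 of 10 effectors each way and 1 of 7 class I genes higher. Those shares higher were 4.17%, 20% and 14.3%, beside 7.45% of all genes called higher and 13.2% lower in this setting. The cells were left out by the sum of the same microglial list, so the fall of that list follows from the selection. In the remaining cells, which could still hold up to 10000 CPM of those markers, Ifi27l2a (5.27) and H2-K1 (4.00) were still called higher. Lgals3bp (3.37), Ccl5 (3.06) and Pld4 (0.017) were not. There Ifi27l2a was at 10 CPM or more in 7 of 16 kept Ascl4 and none of 37 kept EGFP cells, and H2-K1 in 3 and 1. With all kept cells the lowest were Arhgef6 (-5.97), Slc19a1 (-5.96), Tnfrsf19 (-5.66), Gfod1 (-5.66), Flrt2 (-5.57) and Col5a1 (-5.52), each at 10 CPM or more in no kept Ascl4 cell and in 5 to 13 of 40 kept EGFP cells. Arhgef6 encodes an exchange factor for small GTPases, Slc19a1 the reduced folate carrier and Flrt2 an adhesion protein that binds latrophilins.

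Genes regulated by neuronal activity had the largest count, though not share, of members called higher in Neurod6-kept cells (CPM scale, all 45 cells). These are transcription factors and effectors whose transcripts rise within minutes to hours of synaptic input through calcium signalling. Of 35 tested, 9 (25.7%) were called higher in kept cells, against 10.9% of all tested genes, and none lower. Among lists with at least 5 tested members, MHC class II genes had the largest share (4 of 7, 57.1%). Close to the 25.7% were immature neuron and progenitor genes (2 of 8, 25%), interferon-induced effectors (6 of 25, 24%) and granule cell markers (2 of 9, 22.2%). The median log2 ratio of the activity-regulated list was 0.66, beside 0.03 over all genes, 1.84 for class II and 0.90 for progenitor genes. Within the 3 blocks the median of the 35 activity-regulated genes was 0.53, 0.43 and 0.79. The mean was higher in kept cells for 27 of the 35 (77.1%) and the share of cells at 10 CPM or more was larger for 32 (91.4%), beside 51.4% and 70.2% of all tested genes. Such larger shares were not particular to this list. They were seen for 87.5% of progenitor, 85.7% of class II, 85.2% of heat shock and 84.5% of nuclear oxidative phosphorylation genes, but for 34.6% of microglial markers.

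Sik1, a salt-inducible kinase that acts on CREB coactivators, had the highest ratio of the 9. It ranged from 0 through a median of 9.24 to 105.6 CPM in kept cells and from 0 through 0 to 7.69 CPM in lost cells. At 10 CPM or more were 9 of 19 kept cells and none of 26 lost cells (47.4%, interval 24.4% to 71.1%, against 0, interval 0 to 13.2%). The log2 ratio was 4.05, and it was 3.76, 4.46 and 3.96 within the 3 blocks. Only 2 of 40 kept EGFP cells reached that level. Sik1 was singled out by its ratio in these same cells, and Pck2, described below, had the same counts of kept and lost cells.

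Egr2, a zinc finger factor induced by strong synaptic activity, ranged from 0.750 through a median of 261 to 1075 CPM in kept cells and from 0 through a median of 15.2 to 1108 CPM in lost cells. The classes overlapped fully at the top, and the difference lay in the share of cells at 10 CPM or more, 18 of 19 (94.7%, interval 73.97% to 99.9%) against 13 of 26 (interval 29.9% to 70.1%). In kept EGFP cells it was 13 of 40. Btg2, an antiproliferative cofactor of mRNA decay, ranged from 1.11 through a median of 468 to 3107 CPM in kept cells and from 0 through a median of 78.7 to 1404 CPM in lost cells (log2 ratio 1.23, with 2.14, 1.05 and 0.90 within the blocks). Klf6, a Krüppel-like factor, was at 10 CPM or more in 16 of 19 kept and 11 of 26 lost cells, with medians of 299 and 4.23 CPM. Jun, the partner of Fos in the AP-1 complex, was at that level in 16 of 19 and 14 of 26 cells, with medians of 232.02 and 13.98 CPM.

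The other 4 called members were Klf10 (1.76), Egr3 (1.42), Fosl2 (1.27) and Ier2 (1.26), given as log2 ratios. Klf10 was at 10 CPM or more in nearly equal shares of the classes, 7 of 19 and 9 of 26 cells. Egr3 and Fosl2 had the opposite sign in block 3 (-0.14 and -0.11), and Ier2 in block 1 (-0.31). The best known members did not pass the 2-fold rule. Fos, the founding immediate early gene, ranged from 40.2 through a median of 2259 to 7093 CPM in kept cells and from 1.26 through a median of 1181 to 6789 CPM in lost cells (log2 ratio 0.77). Egr1 had medians of 2086 and 953 CPM (0.78), Arc, which acts in synaptic AMPA receptor removal, 595 and 298 CPM (0.88), and Bdnf, a neurotrophin, 283 and 18.1 CPM (0.90). Not all members leaned this way. Nr4a2, an orphan nuclear receptor, averaged 270 CPM in kept and 402 CPM in lost cells (-0.57, and negative in all 3 blocks), and its relative Nr4a3 averaged 179.4 and 379 CPM (-1.08, with -2.15, 0.06 and 0.64 within the blocks).

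**Figure D3:**
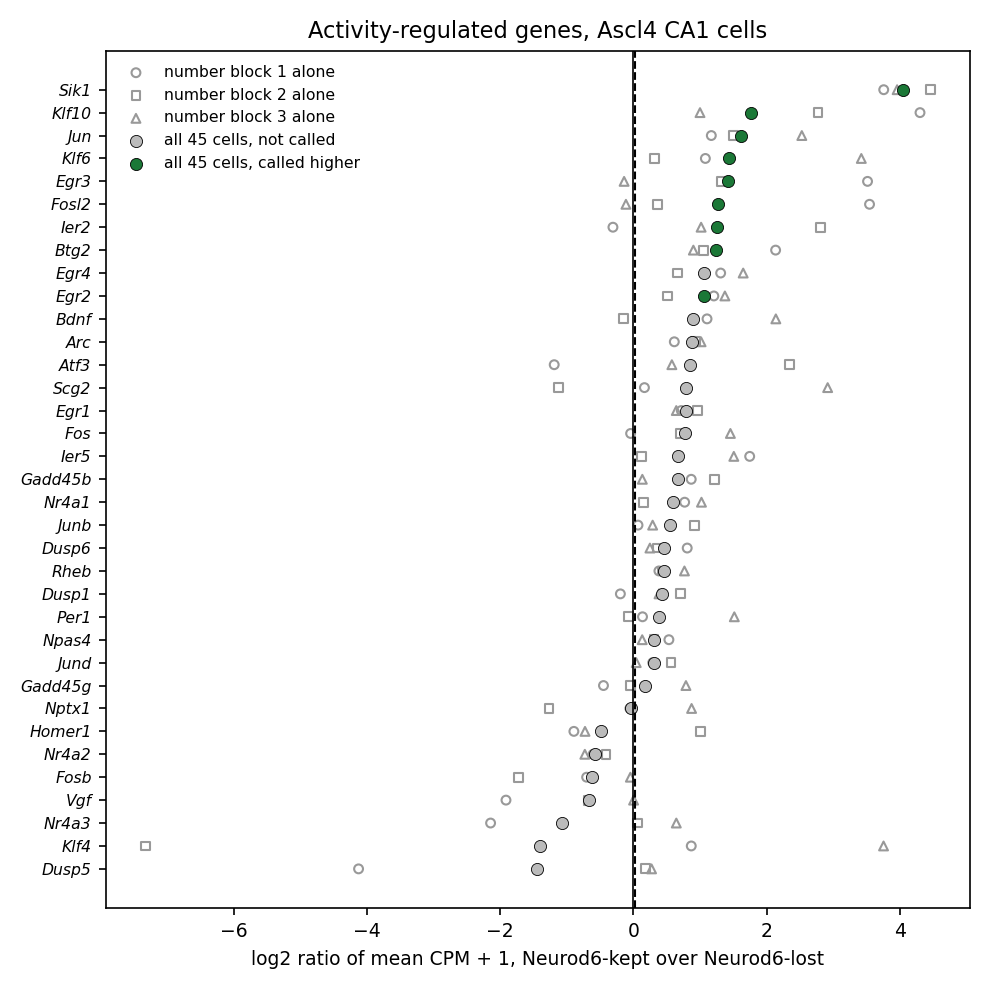
Log2 ratio of mean CPM + 1, Neurod6-kept over Neurod6-lost Ascl4 CA1 cells, for the 35 tested activity-regulated genes. Filled points use all 45 cells (green where called higher), open markers give each block of cell numbers alone, and the dashed line is the median of all tested genes (0.03); 27 of the 35 filled points lie above 0.

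Counted per cell, kept cells held from 21 through a median of 27 to 32 of the 35 genes at 10 CPM or more, and lost cells from 4 through a median of 21 to 30. Of the 26 lost cells, 14 fell within the range of the kept cells and 12 lay below the lowest kept cell. Kept EGFP cells had a median of 21.5, and 17 of these 40 lay below the lowest kept Ascl4 cell. The summed level of the 35 genes had medians of 17762 CPM in kept Ascl4, 12404 CPM in lost Ascl4 and 15118 CPM in kept EGFP cells. Between kept Ascl4 and kept EGFP cells 1 of 36 tested members was called higher and 1 lower (2.78% each, against 7.99% and 11.6% of all genes), with a median of 0.51. The number of genes seen in a cell moved with this count, as the plot of activity-regulated genes against all genes shows. Among the 16 kept and 18 lost cells with at least 3000 genes at 10 CPM or more, the medians were 27 and 23.5 activity-regulated genes. In those cells the list median was 0.47, with 5 of 34 members called higher (14.7%, against 10.4% of all genes) and none lower, so most of the excess in calls was gone there.

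**Figure D4:**
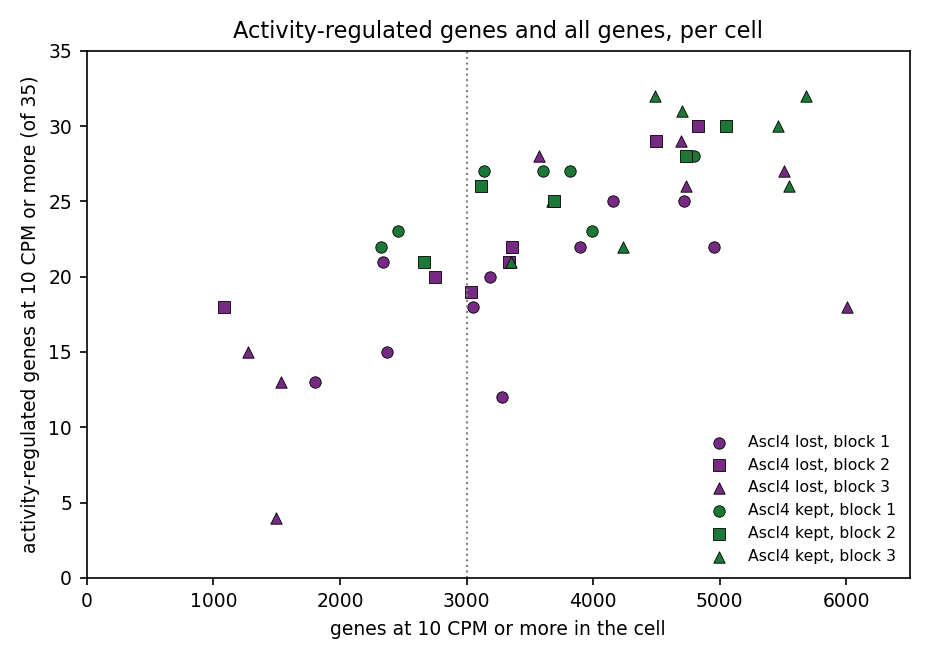
Number of activity-regulated genes at 10 CPM or more (of 35) against the number of all genes at 10 CPM or more, for each of the 45 Ascl4 CA1 cells, by Neurod6 class (colour) and block of cell numbers (shape). The dotted line marks 3000 genes; to its right the medians were 27 for 16 kept and 23.5 for 18 lost cells, and no kept cell lay below 21.

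The size of the activity-regulated difference depended on the scaling. The list median was 0.22 with TMM, 0.28 with the authors' normalized values and -0.07 with DESeq2 size factors, while it lay above the median of all genes under each of them, by 0.40, 0.48 and 0.76 (0.63 with CPM). Members called higher fell to 4 of 33 with TMM (12.1%, against 9.05% of all genes) and 3 of 33 with the authors' values (9.09%, against 8.05%), both near the background. With DESeq2 size factors 4 of 33 were called higher (12.1%, against 5.34%) and 1 lower. The choice of cells moved the count to the background as well. It became 5 of 34 (14.7%, against 12.8% of all genes) when the deepest cells (2 kept and 2 lost) were left out, with a median of 0.52, and 5 of 35 (14.3%, against 13.3%) with a Neurod6 threshold of 1 CPM, with a median of 0.27. With a threshold of 50 CPM it stayed at 9 of 35 (25.7%, against 8.75%), and without the 3 kept and 3 lost cells rich in microglial markers it was 13 of 36 (36.1%, against 11.3%). It was 8 of 36 without the lost cell low in Ascl4 and 9 of 35 without the lost cell of 17883 genes, with medians of 0.61 in both.

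Promoters of 2 called members are printed because they carry the motifs by which activity is known to act on this class of genes, the cAMP response element bound by CREB and the serum response element bound by SRF. The Btg2 window (GRCm38.p6, chr1:134079106-134079405, minus strand) holds the cAMP response element TGACGTCA, and the Egr2 window of 1 of its 5 listed start sites (GRCm38.p6, chr10:67537619-67537918, plus strand) holds a serum response element, both in capitals and 5′ to 3′.
Btg2 promoter: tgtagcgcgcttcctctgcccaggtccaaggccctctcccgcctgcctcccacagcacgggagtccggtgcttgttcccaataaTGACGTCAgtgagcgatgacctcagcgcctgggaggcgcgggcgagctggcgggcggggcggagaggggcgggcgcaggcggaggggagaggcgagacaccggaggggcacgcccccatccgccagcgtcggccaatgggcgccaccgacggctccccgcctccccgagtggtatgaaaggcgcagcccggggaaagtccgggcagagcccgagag
Egr2 promoter: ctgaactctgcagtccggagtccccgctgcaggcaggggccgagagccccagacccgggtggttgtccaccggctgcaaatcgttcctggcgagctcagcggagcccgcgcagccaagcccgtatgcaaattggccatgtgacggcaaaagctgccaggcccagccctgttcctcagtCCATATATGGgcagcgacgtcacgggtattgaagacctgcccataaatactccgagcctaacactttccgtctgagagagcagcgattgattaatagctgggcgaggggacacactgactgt
RefSeq windows were found for 27 of the 35 tested members. The cAMP response element was present in 3 of these 27 (Btg2, Dusp1 and Scg2), 11.1% against 2.03% of all genes, and it reads alike on both strands. The serum response element, searched on both strands, was present in 2 (Dusp5 and Egr2), 7.41% against 1.81%. Of the 9 called members 5 had a window, and 1 each held these motifs. Dusp5 and Scg2, which hold a motif, were not called, and Dusp5 averaged 29.1 CPM in kept and 81.6 CPM in lost cells.

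Synaptic and excitability genes had few calls, and are set beside 10.9% higher and 8.46% lower of all tested genes. Presynaptic release genes had 3 of 38 called higher (7.89%) and 1 lower (2.63%). Glutamate receptors and postsynaptic scaffolds had 3 of 35 higher (8.57%) and 2 lower (5.71%), and GABA-A receptor subunits 2 of 14 higher (14.3%) and none lower. Voltage-gated channel genes had 1 of 42 called higher (2.38%) and 4 lower (9.52%). The list medians were 0.16, -0.05, 0.12 and -0.06. Within them, Cacng3, an auxiliary AMPA receptor subunit, had medians of 248 CPM in kept and 3.09 CPM in lost cells (log2 ratio 1.67, with 1.85, 1.74 and 1.31 within the blocks). Doc2a, a calcium sensor of spontaneous and asynchronous release, was at 10 CPM or more in 14 of 19 kept and 10 of 26 lost cells (1.51, positive in all 3 blocks). Gabrg3, a GABA-A receptor gamma subunit, was at that level in 6 of 19 kept and no lost cell (interval 0 to 13.2%). Snap25, the SNARE protein of vesicle fusion, was at 10 CPM or more in every cell of both classes, with medians of 4437 and 2901 CPM. Scn3a, a sodium channel gene, went the other way, with 18.7 CPM in kept and 81.4 CPM in lost cells (-2.07, negative in all 3 blocks).

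Cytoskeletal and wiring genes are likewise set beside 10.9% higher and 8.46% lower of all tested genes. Of 36 neurofilament and axonal cytoskeleton genes 1 was called higher, Mapt, and 1 lower, Map1a. These shares (2.78% each) were below those of all genes, and the list median was 0.14. Mapt encodes the microtubule-associated protein tau and had medians of 273 CPM in kept and 104.6 CPM in lost cells (log2 ratio 1.56). Map1a, a further microtubule-associated protein, averaged 32.8 and 277 CPM, and its medians of 15.9 and 22.7 CPM lay closer than its means. Trans-synaptic organizers and adhesion genes had 3 of 51 called higher (5.88%) and 5 lower (9.80%) with a median of 0.02. Axon guidance genes had 4 of 28 higher (14.3%) and 1 lower (3.57%) with a median of 0.19. Tenm1, a teneurin that pairs across synapses, was at 10 CPM or more in 7 of 19 kept and 4 of 26 lost cells (3.00). Epha6, Efnb3, Plxna2 and Slit1, of the ephrin, plexin and Slit systems, were the guidance genes called higher, with log2 ratios from 1.01 to 1.90, and Unc5d, a netrin receptor, was the one called lower, with 2 lost cells at 10 CPM or more, of which 1 held 761.8 CPM. Of 58 nuclear oxidative phosphorylation genes 1, Ndufs1, was called higher (1.72%) and none lower, with a median of -0.16. Among 21 housekeeping genes 1 was called higher (4.76%), the prolyl isomerase Ppia, with medians of 37.4 and 10.1 CPM. The other neuronal lists had few tested members or few calls. Immature neuron and progenitor genes had 2 of 8 called higher (25%), Dcx and Notch2, with a median of 0.90. That median was 1.07, 0.64 and 0.51 within the 3 blocks. The mean was higher in kept cells for 5 of the 8, and the summed list had medians of 596 CPM in kept and 593 CPM in lost cells. Granule cell markers had 2 of 9 called higher (22.2%), Btg2 and Plk5, with a median of 0.02, and heat shock genes 1 of 27 (3.70%), Dnajb5. Genes of p53 and cell death had 2 of 17 called each way (11.8% each), and CA3 and mossy cell markers 1 of 8 lower (12.5%), Grik4.

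**Figure D5:**
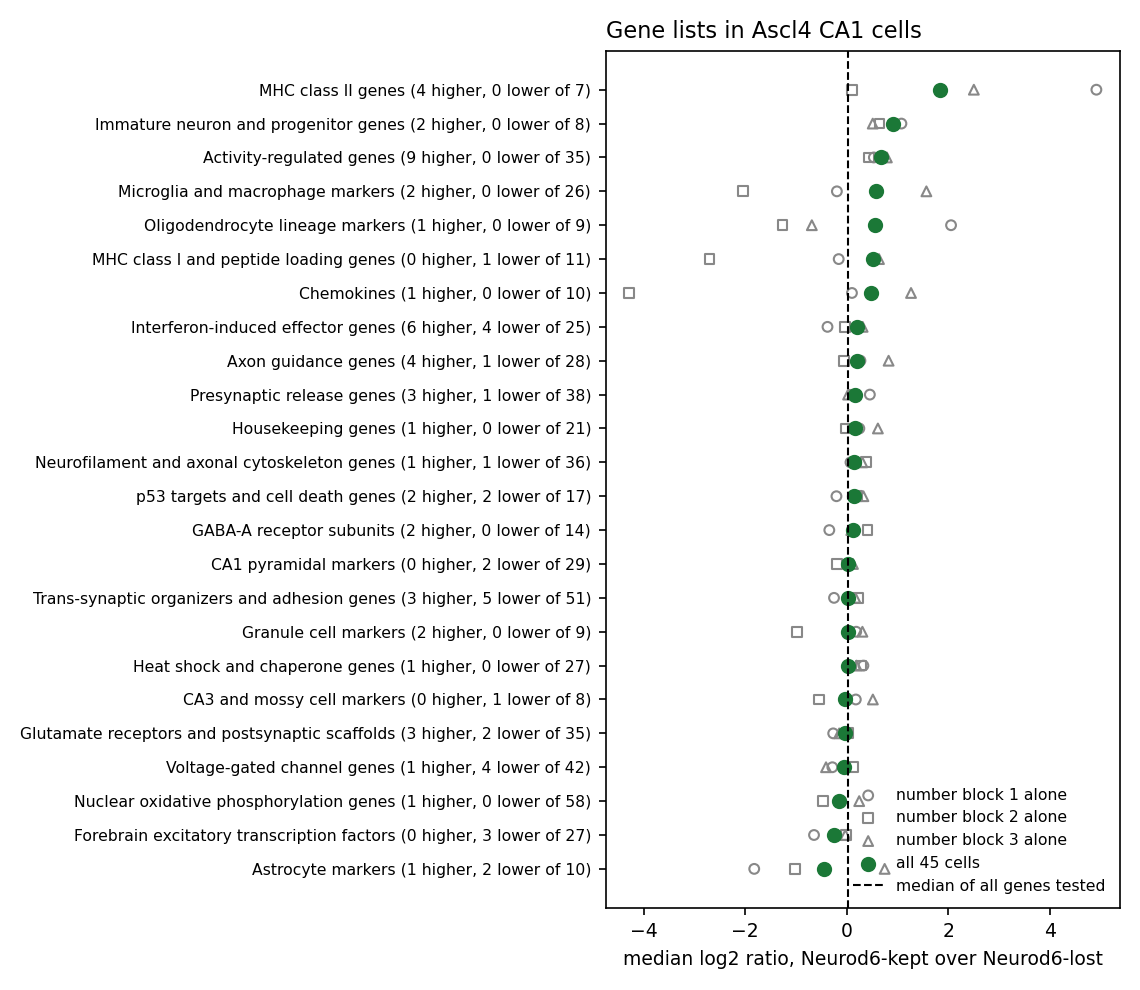
Median log2 ratio, Neurod6-kept over Neurod6-lost Ascl4 CA1 cells, of the 24 gene lists with at least 5 tested members, with called counts in the row names. Green points use all 45 cells, open markers the same genes in each block of cell numbers alone, and the dashed line is the median of all tested genes (0.03). The activity-regulated list lies at 0.66 with blocks from 0.43 to 0.79, and the immature neuron and progenitor list at 0.90 with blocks from 0.51 to 1.07. The immune and glial lists differ widely between blocks.

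Immune genes differed between blocks and rested on few cells. MHC class II genes, which present peptides on professional antigen-presenting cells, had 4 of 7 tested members called higher in kept cells (Cd74, H2-Ab1, H2-Eb1 and H2-DMb1; 57.1%, against 10.9% of all genes), with a median of 1.84. Within the blocks the median of the same genes was 4.91, 0.10 and 2.50. Cd74, the invariant chain of that pathway, was at 10 CPM or more in 6 of 19 kept and 7 of 26 lost cells, and its means of 462 and 85.9 CPM rested on cells of up to 4771 and 1447.5 CPM. The summed class II list had medians of 347 CPM in kept and 318 CPM in lost cells. The cells richest in microglia and macrophage markers bore on it. Without the 3 kept and 3 lost cells over 10000 CPM of those markers, 4 class II genes remained tested, 1 was called higher (25%, against 11.3% of all genes), and the median was -0.26. The microglial list that picked these cells shares a member with the class II list.

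For the whole microglia and macrophage list, 2 of 26 tested members were called higher (Lyz2 and Cd14; 7.69%, against 10.9% of all genes) and none lower, with a median of 0.57. With a Neurod6 threshold of 50 CPM none was called higher and 18 of 26 lower (median -1.44), against 13.2% of all genes called lower. At that threshold the kept cells with 84189 and 24698 CPM of these markers, whose Neurod6 was 45.6 and 25.4 CPM, join the lost class. Without the cells over 10000 CPM 1 of 25 was higher and 5 lower (median -0.54), against 11.3% and 10.7% of all genes, but those cells were picked by this same list. The summed level of the list ranged from 1.58 through a median of 1340 to 84189 CPM in kept cells. In lost cells it ranged from 15.6 through a median of 2480 to 29164 CPM. At least 3 of 7 defining microglial markers were at 10 CPM or more in 9 of 19 kept, 14 of 26 lost and 15 of 40 kept EGFP cells. None of the 7 was at 0 throughout a class. Of 6 defining lymphocyte markers, Cd3g, Cd8a, Nkg7 and Trbc2 had no read in kept cells, and at least 1 was at 10 CPM or more in 1 kept and 4 lost cells. Of 10 tested astrocyte markers, 1 was called higher (10%, against 10.9% of all genes) and 2 lower, Gfap and Slc1a3 (20%, against 8.46%). At least 2 of 7 defining interneuron markers were at 10 CPM or more in no kept and 1 lost cell. At least 2 of 6 granule cell markers were at that level in 3 of 19 kept, 8 of 26 lost and 1 of 40 kept EGFP cells. For 2 or more of 5 astrocyte markers the counts were 2, 3 and 4 cells, and for 2 or more of 5 oligodendrocyte markers 3, 9 and 13 cells.

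Interferon-induced effector genes had calls in both directions, 6 of 25 higher and 4 lower (24% and 16%, against 10.9% and 8.46% of all genes), with a median of 0.21. This balance turned with the cells used. Without the 3 kept and 3 lost cells rich in microglial markers 3 of 22 were called higher and 8 lower (36.4%, against 10.7%), with a median of -0.85. With a Neurod6 threshold of 50 CPM none of 25 was called higher and 9 lower (36%, against 13.2%), with a median of -0.78. These settings are not separate, because kept cells rich in microglial markers, with Neurod6 at 45.6 and 25.4 CPM, fall below 50 CPM. Irf7, a factor that amplifies the interferon response, was at 10 CPM or more in 8 of 19 kept and 5 of 26 lost cells (log2 ratio 1.91, positive in all 3 blocks). Ifi27l2a was higher in kept cells by 1.22 with the opposite sign in block 2 (-2.55). Ifit3 and Ifit3b, antiviral proteins that bind RNA and near-identical copies of each other whose reads may be shared, were at that level in 1 of 19 kept cells each and in 5 and 4 of 26 lost cells. Stat2, part of the complex that carries the interferon signal to the nucleus, averaged 8.17 CPM in kept and 104.03 CPM in lost cells (-3.52, negative in all 3 blocks). B2m, the light chain of MHC class I, was at 10 CPM or more in 10 of 19 and 20 of 26 cells and had means of 662 and 299.9 CPM, with 1 kept cell at 8202.5 CPM. Of 11 MHC class I and peptide loading genes none was called higher and 1, Tapbpl, lower (9.09%, against 8.46% of all genes).

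The 12 highest and 12 lowest called genes were read in few cells. In the higher set, the number of kept cells at 10 CPM or more ran from 3 to 9. Pck2, the mitochondrial phosphoenolpyruvate carboxykinase, had the most, 9 of 19 kept and none of 26 lost cells, with means of 91.8 and 0.542 CPM (log2 ratio 5.91, and 6.57, 5.17 and 5.92 within the blocks). It was also at that level in 9 of 40 kept EGFP cells. Pes1, a ribosome biogenesis factor, was at 10 CPM or more in 6 of 19 kept and no lost cells, and Mospd1 in 5 of 19 and no lost cells, with the same sign in all 3 blocks. Il1rn, the antagonist of the interleukin-1 receptor, had the highest ratio (6.69), with 1 kept cell at 2950.4 CPM, and it was 1.18 without the highest cell of each class. The other genes were Tcn2, Zbtb24, Ormdl1, Mob1a, Pomk, Ngly1, Krt77 and Thap4, with log2 ratios from 5.24 to 6.25.

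In the lower set, Pdrg1, a prefoldin-related protein, was at 10 CPM or more in 1 of 19 kept and 9 of 26 lost cells, with means of 0.657 and 85.2 CPM (log2 ratio -5.70, and -4.42, -6.75 and -5.71 within the blocks). Dusp26, a phosphatase of neurons, had the lowest ratio (-6.95), with no kept and 6 lost cells at 10 CPM or more, of which 1 held 2699.7 CPM. Ptprt, a receptor tyrosine phosphatase at synapses, was likewise at that level in no kept and 6 lost cells (-6.38). The others were Xylb, Zfp110, Crhr1, Bcs1l, Nbas, Krt1, Zfp607a, Pcdhb21 and Cdkn1b, with log2 ratios from -6.28 to -5.68.

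The same threshold applied to EGFP cells also split cells of unequal gene number. Between the 40 kept and 6 lost EGFP cells, 9004 genes were tested, of which 3424 (38%) were called higher and 257 (2.85%) lower, with a median log2 ratio of 0.98. The 6 lost cells had a median of 2320.5 genes at 10 CPM or more against 3401 in the kept cells, and a median of 2.51% mitochondrial reads against 0.646%. Their summed microglia and macrophage markers had a median of 6678 CPM against 1102 CPM in the kept cells. For astrocyte markers it was 3528 against 1037 CPM, and for oligodendrocyte markers 653 against 613 CPM. Of the activity-regulated genes 21 of 35 were called higher and 1 lower, with a median of 1.89, beside that background of 38% and 0.98. The CA1 list had 6 of 29 higher and 1 lower with a median of 0.89. Whether the split differs between the viruses was not tested.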

How the data were processed

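RNA of single patched cells was sequenced, and each sample is 1 cell. STAR, HTSeq and the build GRCm38.p4 are named in the submitters' processing notes, without versions. Per the deposited files, the authors' count tables hold raw read counts per gene (22870 genes and 92 ERCC spike-in rows). The deposited normalized signal holds those counts divided by 1 factor per cell, by a method that no source used here gives. CPM was computed from the counts without ERCC rows. Ratios, calls and intervals were computed with Python 3.11.15, pandas 2.3.3, numpy 2.4.6 and scipy 1.17.1, and the scaling alternatives with edgeR 4.0.16 (TMM) and DESeq2 1.42.0 (poscounts) in R 4.3.3. Depth ran from 1077532 to 25442664 reads per Ascl4 CA1 cell.

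The members and the 28 gene lists (883 genes, 860 found) were chosen with earlier results of these data known. Genes are named as the 12 highest and 12 lowest called, the 4 highest-mean and every called member of a list, a fixed set, and the 6 highest and 6 lowest between viruses. Egr4, Mpped1, Npas4, Nr4a1, Nr4a2 and Nr4a3 were added after their values were seen, as were the other members named outside these parts. Gene positions are from GENCODE vM21 and promoters from RefSeq. Some single genes that enter the list totals are not reported here. The list of long noncoding RNAs had 1 member in the tables and is not described. Alternatives varied the scaling, pseudocount, filter, fold, threshold, depth, quality control and blocks of cell numbers.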

Additional observations from a re-analysis of the deposited data

How the results depend on the processing

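Without a test, a call is a fold rule, and its counts move with that rule. Against 979 genes called higher (10.9%) and 758 lower (8.46%), the counts were 1755 and 1241 (19.6% and 13.9%) from the mean without the highest cell alone, 1654 and 1185 (18.5% and 13.2%) at 1.5-fold, 278 and 246 (3.10% and 2.75%) at 4-fold, 631 and 470 (7.04% and 5.25%) with a pseudocount of 10 CPM, and 1557 and 1384 (7.61% and 6.77%) without a filter. The stricter filter left 4687 genes tested, with 5.70% higher and 4.31% lower. With DESeq2 size factors 383 (5.34%) were higher, and with a Neurod6 threshold of 50 CPM 1182 (13.2%) were lower. By block of cell numbers, 1486 (18.5%) were lower in block 1 alone, 1380 (17.5%) lower in block 2 alone and 2128 (22.8%) higher in block 3 alone, with 1564 (17.3%) higher without block 1 and 1204 (14.5%) lower without block 3. For kept Ascl4 against kept EGFP cells (7.99% higher, 11.6% lower) the shares called were 12.8% higher in summed reads, 20.4% lower without the highest cell, 5.17% and 7.29% with 10 CPM added, 6.91% and 9.08% without a filter, and 4.42% and 7.20% with the stricter filter. The number of kept Ascl4 cells was 19 and ran from 13 (threshold 50 CPM) to 26 (1 CPM).

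The CA1 list median (0.03) was -0.20 in summed reads, -0.25 with TMM, -0.67 with DESeq2 size factors, -0.17 with the authors' values (-0.165), -0.36 in block 2 alone, -0.15 without block 1 and -0.25 in cells of at least 3000 genes. The activity-regulated median (0.66) was 0.22 with TMM, -0.069 with DESeq2 size factors, 0.28 with the authors' values, 0.27 at a Neurod6 threshold of 1 CPM, 0.40 without quality control, 0.38, 0.37 and 0.89 in each block alone, 0.44 without block 3 and 0.47 in cells of at least 3000 genes. The class II median (1.84) was -3.41 in block 2 alone and -0.26 without the cells rich in microglial RNA. Named genes that changed sign were Spink8 (0.35 in block 3), Tcf3 (1.35 in block 2, 0.61 without block 1), Egr3 (-0.14) and Fosl2 (-0.11) in block 3, Ier2 (-0.31) in block 1, Cd74 (-2.44 in block 2, -0.36 at 50 CPM, -0.59 without microglia-rich cells), H2-Ab1 (-3.11) and H2-DMb1 (-1.09) without those cells, H2-DMb1 (-3.48) without quality control, Ifi27l2a (-2.55 in block 2, -0.57 with DESeq2 size factors), Ifit3 (0.045 in block 2, 1.00 at 1 CPM), Ifit3b (0.17 and 1.51), Irf1 (1.30) and Dusp26 (1.18) at 1 CPM, and Il1rn (-4.78) at 50 CPM. At 1 CPM the lost cell with 2699.7 CPM of Dusp26 and 2944.5 CPM of Ifit3 (Neurod6 1.20 CPM) joins the kept class. The lost cell with 2577 CPM of Irf1 (Neurod6 7.42 CPM) does so too. At 50 CPM the kept cell with 2950.4 CPM of Il1rn (Neurod6 45.6 CPM) joins the lost class. The cause of the other sign changes was not tested.

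Leaving out the lost cell of 17883 genes gave 985 higher and 761 lower calls, and leaving out the lost cell with little Ascl4 gave 988 and 819. The settings on cells of at least 3000 genes, microglia-rich cells and these 2 cells were chosen after seeing the data. No paired analysis was possible because the labels give the groups no shared replicate numbers and the results come from no test.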
